A study of Mus musculus with 6 samples.

Results

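The genes described here encode voltage-gated potassium, calcium and sodium channels and their relatives and auxiliary subunits. They were chosen by symbol: names that start with Kcn or Cacn, and Scn names with a number followed by a or b. By this rule 85 of the 13960 rows of the authors' unfiltered gene table were members, 1 of them Scn2a1, the older symbol of Scn2a. Levels are FPKM, fragments scaled to transcript length and to library depth, in every library. At 1 FPKM or more in all 6 libraries were 21 members, and the other 64 were below 1 FPKM in at least 1 library. Close to that limit, Kcnip3 reached a lowest value of 1.13 FPKM, Kcnj16 of 1.46 and Cacna2d3 of 1.58, while Cacna1e went down to 0.952, Scn3b to 0.876 and Kcna6 to 0.874. A minimum in every library removes genes that were high at 1 time only, and by the mean over the 6 libraries 51 members reached 1 FPKM.

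The RNA came from the injury site of mouse spinal cord after a contusion at T8, with 3 libraries at 3 days and 3 at 7 days. Both groups were chimeras labelled LysMCre:Rplfl/fl > CD45.1, strain CD45.1; their age is not given in the sources used here. LysM-Cre is active in macrophages, neutrophils and other myeloid cells and switches on an epitope tag on a ribosomal protein, and RiboTag immunoprecipitation collects ribosomes that carry the tag. Host cells of such a chimera, among them neurons and glia, carry no tag of their own. There is no uninjured cord and no unprecipitated RNA among the samples, so every comparison is of 7 days with 3 days. The labels do not tell separate animals from pooled ones, so a p-value covers only the spread of the 6 libraries, which may be technical.

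Voltage-gated channels open when the membrane potential changes. Sodium channels start the action potential, potassium channels end it and set the resting potential, and calcium channels couple depolarization to release and signalling. Neurons hold the widest set of them. Macrophages do not fire action potentials, but use a small set of potassium channels to set their membrane potential, calcium entry and volume.

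The libraries held RNA with markers of macrophages and also of neural cells. The 6 macrophage markers that could be tested summed to between 1237 and 1414 FPKM at 3 days and between 1254 and 1285 at 7 days. Of these, 2 were higher (Csf1r and Mertk), 2 were lower (Cd14 and Fcgr1), and Itgam and Msr1 were neither. Lyz2, the gene whose promoter drives the Cre, was set aside from testing because it is listed at 0 in 7-day replicate 3 beside 9435 FPKM in 7-day replicate 1. The 15 neuron markers summed to 198, 484 and 216 FPKM in the 3 libraries at 3 days and to 84.6, 70.7 and 73.5 at 7 days; 13 were lower at 7 days, 0 were higher, and none was listed at 0 in a 7-day library. Astrocyte markers summed to between 249 and 650 FPKM at 3 days and between 121 and 150.2 at 7 days (6 of 9 lower), and oligodendrocyte markers to between 327 and 666 and between 140.5 and 168 (9 of 9 lower). The 5 oligodendrocyte progenitor markers fell 4.10-fold in sum, from between 28.7 and 60.7 FPKM to between 9.44 and 10.7 (5 of 5 lower), and the 8 endothelial markers went from between 43.5 and 70.7 to between 26.8 and 31.6 (6 lower, 1 higher). Erythroid markers had the largest fold of these sums, 10.2-fold lower, from between 164 and 213 FPKM to between 15.9 and 22.4 (4 of 5 lower). Microglia markers summed to between 736 and 930 FPKM at 3 days and between 2170 and 2406 at 7 days (5 of 6 higher). In immunoprecipitated bulk RNA of this kind, fewer cells of a type, less RNA per cell and less untagged RNA carried along cannot be told apart.

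Nearly all channel genes that passed the test were lower at 7 days. Of the 78 members that could be tested, 35 fell, 2 rose and 41 did not pass the test (limma on log2(FPKM + 1), Benjamini-Hochberg adjusted p of 0.05 or less over 13042 genes). That is 44.9% lower and 2.56% higher, beside 20.3% lower and 18.8% higher among all genes tested. The fitted log2 change was negative in 74 of the 78, with a median of -0.74, beside -0.04 over all genes tested. The groups did not overlap for 54 members, 52 of them lower and 2 higher, beside 28.6% lower and 26.8% higher of all genes. With quantile normalization the member median was -0.34, with 65 negative and 13 positive changes, beside a median of 0.05 over all genes tested. In that fit 19 of the 78 members were called lower and 2 higher, beside 1809 lower and 2317 higher of the 13042 genes. Of the 35 lower calls 18 held under it and 17 were lost, and Cacna1d was newly called; the adjusted p is given beside each named gene that lost its call. Under the authors' own test in their deposited table, 47 of the 78 had a q of 0.05 or less, 29 of the 35 lower calls among them; of all genes tested, 20.7% were lower and 17.8% higher at that q.

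The share called lower depends on the level of the genes it is set beside. Among the 47 tested members with a mean of 1 FPKM or more over the 6 libraries, 28 fell and 1 rose, or 59.6% lower, beside 19.7% lower and 21.9% higher of all genes with such a mean. Among the 31 with a mean below 1 FPKM, 7 fell and 1 rose, or 22.6% lower, beside 23.7% lower and 1.22% higher of all genes of that level, a share near the background. Split by the lowest library instead, 10 of 19 tested members at 1 FPKM or more in all libraries fell and 1 rose (52.6% lower), beside 15.3% lower and 24.4% higher of all genes there. Of the 59 below 1 FPKM in some library, 25 fell and 1 rose (42.4% lower), beside 34.5% lower and 2.56% higher of all such genes. A fall can itself bring a gene below 1 FPKM in a library, so this second split is partly set by the fall. Only 8 of the 35 members called lower are in the authors' filtered table.

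**Figure D1:**
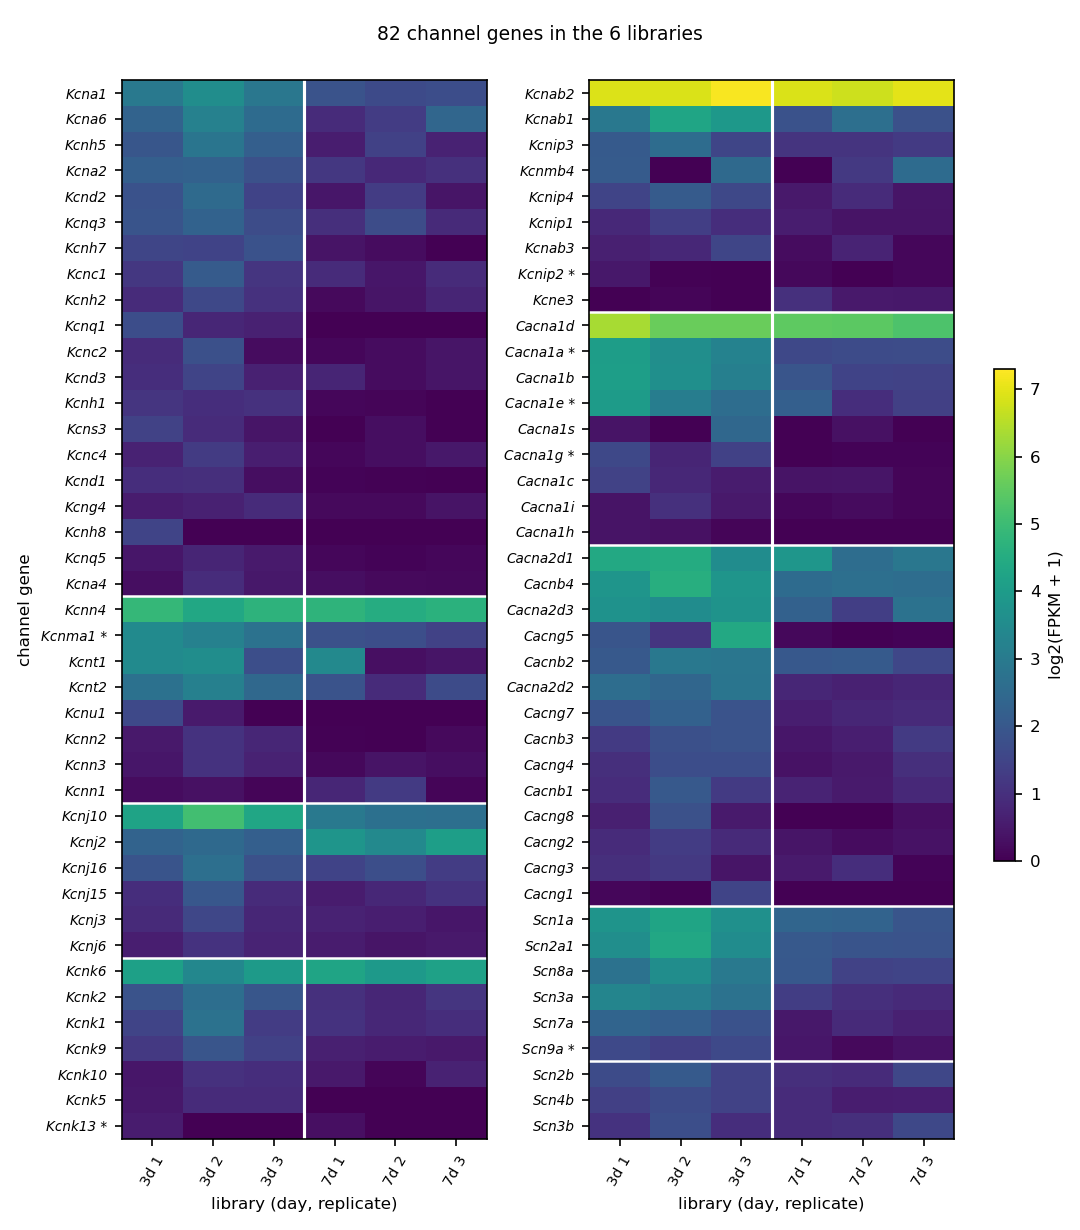
Level of 82 of the channel genes (rows, ordered within families that white lines separate) in the 6 libraries (columns), as log2(FPKM + 1) from dark (0) to yellow; an asterisk marks the 7 members set aside before testing. Most rows are darker at 7 days than at 3 days, while Kcnab2, Cacna1d, Kcnn4 and Kcnk6 stay bright in all 6 columns and Kcnj2 is brighter at 7 days.

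Kcnab2, Cacna1d, Kcnn4, Kcnk6 and Kcnj2, a set of 5 members with high 7-day means chosen after the values were seen, held none that was called lower. Together they summed to 248, 200.3 and 243 FPKM at 3 days and to 219, 194 and 221 FPKM at 7 days. A further 70 tested members summed to 233, 333 and 232 FPKM at 3 days and to 88.4, 70.3 and 76.5 FPKM at 7 days, a mean 3.39-fold lower. The 5 genes thus made up 35.4% to 49.8% of the summed FPKM of the 78 tested members at 3 days. At 7 days they made up 68.1% to 70.04%, and a choice by 7-day level favours such a rise. Within the 5, the mean of Kcnj2 went from 4.05 to 12.9 FPKM and that of Cacna1d from 59.4 to 41.3. Without 3-day replicate 2, the library with the highest neuron, astrocyte and oligodendrocyte marker sums, the 70 were 2.97-fold lower and the neuron markers 2.71-fold lower, against 3.92-fold with it. The number of members at 1 FPKM or more was 55, 64 and 55 of 85 at 3 days and 29, 28 and 32 at 7 days.

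**Figure D2:**
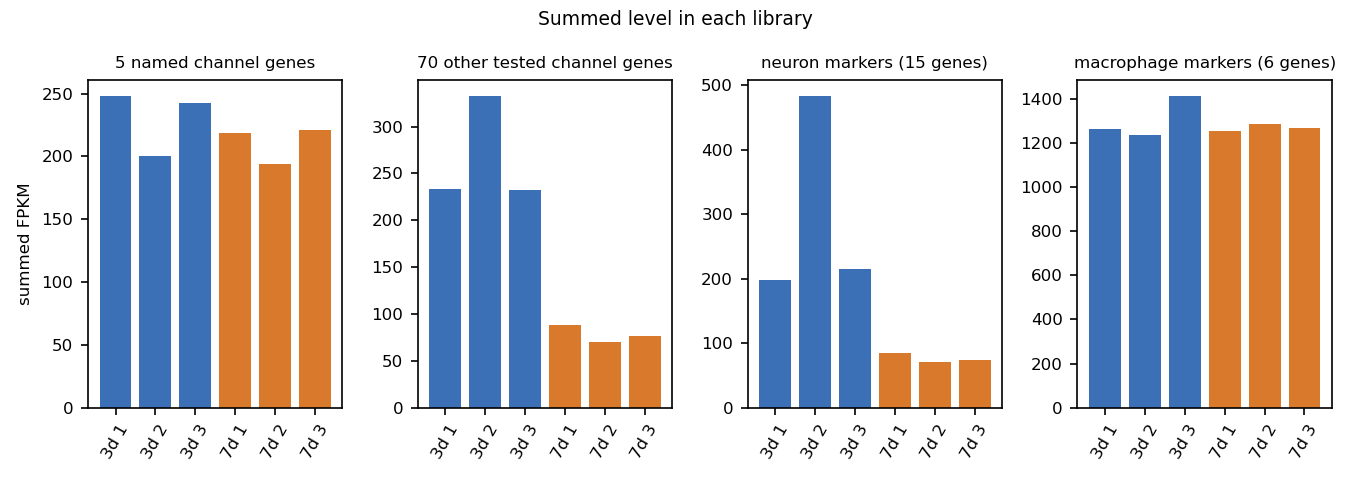
Summed FPKM in each library (bars, each panel with its own axis from 0; 3 days in blue, 7 days in orange) of Kcnab2, Cacna1d, Kcnn4, Kcnk6 and Kcnj2 (5 named genes), of 70 other tested channel genes, of 15 neuron markers and of 6 macrophage markers. The 5 named genes, chosen for high 7-day means after the values were seen, sum to between 194 and 248 FPKM. The 70 others go from 232 or more to 88.4 or less and the neuron markers from 198 or more to 84.6 or less.

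Kcnj2, the gene with a clear rise, encodes Kir2.1, a strong inward rectifier that holds the resting potential near the potassium equilibrium. For comparison of their upstream sequence, the 250 bases before the RefSeq start (RefSeq, GRCm38.p6) are printed 5′ to 3′ for Kcnj2, for Kcnn4, whose change was near 0, and for Kcnj10, an inward rectifier of the same family that fell. In GENCODE M21 none of the 3 windows overlaps an annotated exon. The authors' table starts Kcnn4 earlier, at 24369983, so that its window lies inside the interval given there, and the last bases of the Kcnj10 window are in its interval too. Capitals mark 2 motifs searched on both strands: GAGGAA, the core of sites of the myeloid factor PU.1, which reads TTCCTC where it lies on the other strand, and CACGTG, a palindromic E box.
Kcnj2, chr11:111065914-111066163, plus strand: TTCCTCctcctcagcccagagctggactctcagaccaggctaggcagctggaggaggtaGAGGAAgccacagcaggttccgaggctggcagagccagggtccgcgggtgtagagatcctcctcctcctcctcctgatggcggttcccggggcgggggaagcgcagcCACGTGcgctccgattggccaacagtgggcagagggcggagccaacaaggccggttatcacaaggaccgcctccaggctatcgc
Kcnn4, chr7:24370013-24370262, plus strand: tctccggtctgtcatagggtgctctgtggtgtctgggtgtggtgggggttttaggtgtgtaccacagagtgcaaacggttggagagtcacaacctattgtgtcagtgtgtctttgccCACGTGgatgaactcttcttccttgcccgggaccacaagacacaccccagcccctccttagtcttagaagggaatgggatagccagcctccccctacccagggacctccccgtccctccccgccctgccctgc
Kcnj10, chr1:172340960-172341209, plus strand: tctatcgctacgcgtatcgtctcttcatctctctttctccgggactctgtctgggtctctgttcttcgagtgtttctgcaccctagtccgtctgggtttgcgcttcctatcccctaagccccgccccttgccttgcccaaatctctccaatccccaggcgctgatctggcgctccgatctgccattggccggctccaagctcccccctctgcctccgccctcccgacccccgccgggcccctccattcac
The Kcnj2 window holds 2 GAGGAA matches and 1 CACGTG, the Kcnn4 window 1 CACGTG and no GAGGAA, and the Kcnj10 window neither. GAGGAA occurs in 23.3% of all 32851 windows of this length and in 18 of the 100 windows of the 65 members with an entry; CACGTG occurs in 6.02% of all and in 4 of the 100. TTCAGCACC, the first letters of the RE1 element bound by the neuronal repressor REST, was in 0.301% of all windows and in 0 of the 100. Such matches are descriptions of the letters and say nothing of binding.

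Kcnj2 (chromosome 11, 111066168 to 111076826, plus strand, mm10) measured 3.97, 4.59 and 3.60 FPKM at 3 days (replicates 1, 2 and 3, an order kept throughout) and 13.03, 9.82 and 15.9 at 7 days. All 7-day libraries were above all 3-day libraries. The mean rose from 4.05 ± 0.499 to 12.9 ± 3.05 FPKM (SD, n = 3 each), 3.19-fold, with a log2 change of 1.44 ± 0.19 (SE, limma adjusted p = 0.00163). The call held under all 14 alternatives run, and by mean level the gene moved from rank 27 to rank 6 of the 85. Its neighbour Kcnj16, which ends 42 kb before it on the same strand and forms channels with Kcnj10, measured 2.72, 5.31 and 2.48 FPKM at 3 days and 1.76, 2.37 and 1.46 at 7 days; its lower 7-day level was not called (log2 change -0.61 ± 0.26, adjusted p = 0.10).

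Kcnj10 encodes Kir4.1, which in the cord buffers potassium in astrocytes and oligodendrocytes (chromosome 1, 172341207 to 172374053). It measured 17.7, 33.3 and 18.9 FPKM at 3 days and 6.78, 5.48 and 5.30 at 7 days. The groups did not overlap, and 3-day replicate 2 stood highest. The mean fell 3.97-fold, from 23.3 ± 8.68 to 5.85 ± 0.807 FPKM (log2 change -1.77 ± 0.24, adjusted p = 0.00185), beside the lower astrocyte and oligodendrocyte marker sums given above; their part in the result was not tested. The other 3 inward rectifiers, Kcnj3, Kcnj6 and Kcnj15, had 3-day means between 0.752 and 1.58 FPKM and were not called.

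**Figure D3:**
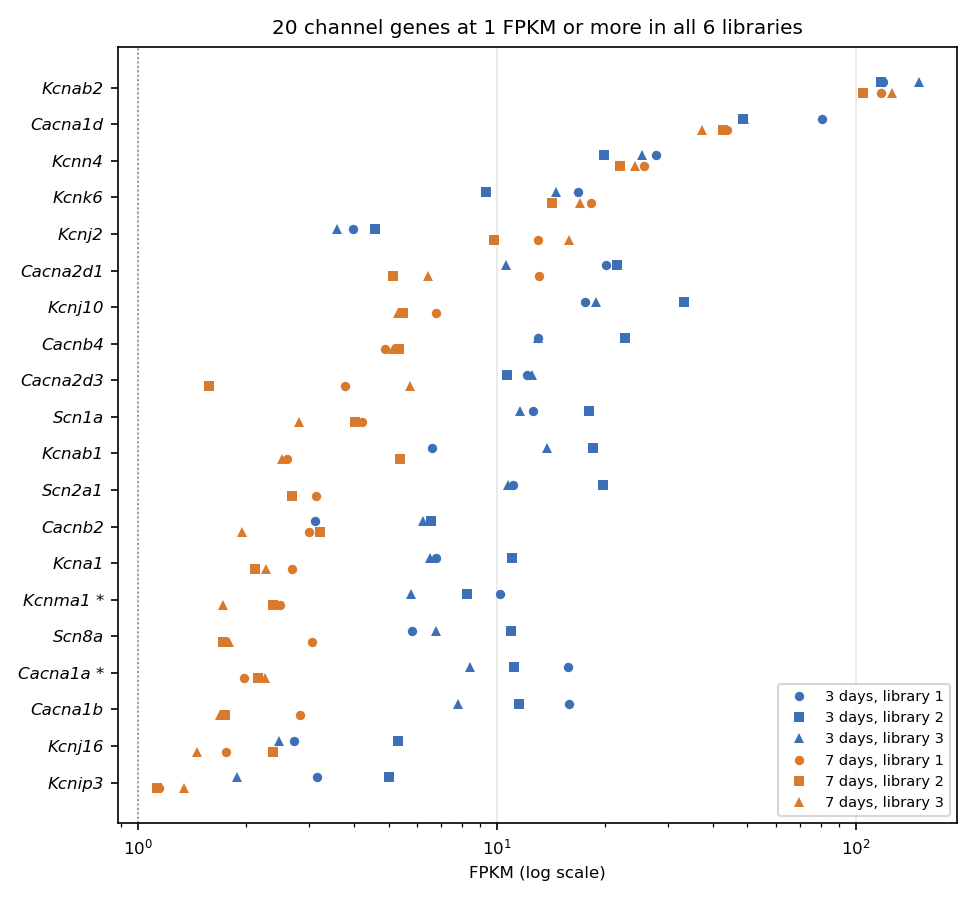
FPKM (log axis) of 20 channel genes at 1 FPKM or more in all 6 libraries, ordered by 7-day mean, with 1 symbol per library (blue 3 days, orange 7 days; shape gives the replicate); an asterisk marks the 2 set aside before testing. Kcnj2 alone has all orange symbols to the right of all blue ones, and in 14 genes, the 2 set aside included, all orange symbols lie to the left. Of all tested genes at 1 FPKM or more in all 6 libraries, 20.7% were lower at 7 days without overlap and 34.8% higher.

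The channel genes with the highest levels at 7 days did not pass the test. Kcnab2 encodes the beta-2 subunit of Kv1 channels, which has the fold of an aldo-keto reductase (chromosome 4, 152390747 to 152448873). It measured 119, 118 and 150.2 FPKM at 3 days and 118, 105 and 127 at 7 days, with overlapping groups. The log2 change was -0.14 (95% interval -0.44 to 0.16, adjusted p = 0.41). It was the highest member at both times, with 24.7% of the summed channel FPKM at 3 days and 38.0% at 7 days, and 125 of its exon bases are shared with Gm16334 on the same strand.

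Kcnn4 encodes KCa3.1, the calcium-activated potassium channel of leukocytes and red cells (chromosome 7, 24369983 to 24385881). Its level was 27.9, 19.9 and 25.4 FPKM at 3 days and 25.8, 22.1 and 24.2 at 7 days, with a log2 change of -0.01 (95% interval -0.34 to 0.32, adjusted p = 0.956). Kcnk6, the potassium leak channel TWIK2 (chromosome 7, 29221852 to 29232545), measured 16.8, 9.35 and 14.6 FPKM at 3 days and 18.4, 14.3 and 17.04 at 7 days (log2 change 0.30, interval -0.19 to 0.79, adjusted p = 0.283). In both genes the groups overlapped, and 3-day replicate 2 was the lowest of the 6 libraries. For 53 of the 78 tested members (67.9%), Kcnj10 among them, that library was the highest of the 3 at 3 days, beside 40.6% of all genes tested.

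Cacna1d encodes the pore of the L-type calcium channel Cav1.3 (chromosome 14, 30039971 to 30434179). It measured 80.7, 48.7 and 48.9 FPKM at 3 days and 43.8, 42.7 and 37.3 at 7 days. The 7-day libraries were all lower, but the change was not called (log2 change -0.48 ± 0.20, adjusted p = 0.0922). Quantile normalization gave an adjusted p of 0.0272 for it, and without 3-day replicate 1, its highest library, the log2 change was -0.24 (adjusted p = 0.113). Cacna1d shares 589 exon bases with Chdh on the opposite strand, and the strand used in counting is not given in the sources used here.

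The pore-forming sodium channel genes, which apart from Scn7a carry the action potential, fell together. All 5 tested members were called lower (100%, beside 20.3% lower and 18.8% higher of all genes tested). The summed level of the 5 went from between 37.5 and 60.1 FPKM at 3 days to between 8.69 and 12.3 at 7 days, 4.49-fold lower in the mean. Scn2a1, which encodes Nav1.2 of central axons (chromosome 2, 65620785 to 65764218), measured 11.1, 19.8 and 10.8 FPKM at 3 days and 3.14, 2.69 and 2.68 at 7 days. It fell 4.89-fold (log2 change -1.91 ± 0.23, adjusted p = 0.00131). Scn1a, Nav1.1 of inhibitory neurons (chromosome 2, 66270924 to 66440961), measured 12.6, 18.05 and 11.6 FPKM and then 4.22, 4.03 and 2.81, a 3.83-fold fall (-1.68 ± 0.20, adjusted p = 0.00133). In neither gene did the groups overlap, and 3-day replicate 2 was highest in both.

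Scn3a, the embryonic-type Nav1.3, fell 6.78-fold, from 8.92, 7.71 and 5.71 FPKM to 1.498, 0.977 and 0.820 (-2.004 ± 0.21, adjusted p = 0.000781). For Scn7a, a sodium sensor of glia and other cells, the values were 4.16, 3.59 and 2.61 FPKM and then 0.373, 0.811 and 0.579 (-1.48 ± 0.20, adjusted p = 0.00196). These 2 were highest in 3-day replicate 1, not in replicate 2. Scn8a, Nav1.6 of the nodes of Ranvier (chromosome 15, 100870672 to 101035553), measured 5.80, 10.9 and 6.79 FPKM and then 3.05, 1.73 and 1.80 (-1.45 ± 0.26, adjusted p = 0.00527). All 5 kept their call in every alternative that tested them. In a cluster on chromosome 2, Scn3a, Scn2a1, Scn1a, Scn9a and Scn7a lie within 1327 kb (65458398 to 66784977). Of the 4 auxiliary genes, Scn4b fell (1.84 ± 0.307 to 0.629 ± 0.205 FPKM, adjusted p = 0.0119; 0.336 with quantile normalization), and the others, Scn2b and Scn3b among them, were not called.

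Of the 6 tested calcium channel pores, Cacna1b passed the test and 5 did not (16.7% lower, beside 20.3% lower and 18.8% higher of all genes tested). In 5 of the 6, all 7-day libraries were below all 3-day ones, beside 28.6% of all genes. The other 3 pores, Cacna1a, Cacna1e and Cacna1g, were set aside before testing. They too were lower without overlap. In a limma fit with no row set aside their adjusted p were 0.00102, 0.0179 and 0.00836. Cacna1b encodes Cav2.2, the N-type channel of presynaptic terminals (chromosome 2, 24607470 to 24762936). It measured 15.9, 11.5 and 7.82 FPKM at 3 days and 2.83, 1.75 and 1.69 at 7 days, without overlap, and fell 5.63-fold (log2 change -2.02 ± 0.26, adjusted p = 0.00171). Besides Cacna1d, the uncalled pores Cacna1c, Cacna1h, Cacna1i and Cacna1s had 3-day means between 0.211 and 1.58 FPKM. Cacna1s, the skeletal muscle pore, reached 4.42 FPKM in 3-day replicate 3 and at most 0.314 in any other library. Of the 6 tested pores, 4 were highest in 3-day replicate 1, beside 13 of all 78 tested members.

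The auxiliary calcium channel genes, which traffic the pore and tune its gating, fell in 8 of 14 cases and rose in 0. That is 57.1% lower, beside 20.3% lower and 18.8% higher of all genes tested. The sum of the 14 went from between 64.9 and 84.2 FPKM to between 19.1 and 28.3. Cacnb4, a beta subunit of central neurons (chromosome 2, 52431058 to 52556453), measured 13.04, 22.8 and 13.02 FPKM at 3 days and 4.89, 5.35 and 5.13 at 7 days (3.18-fold lower, log2 change -1.45 ± 0.22, adjusted p = 0.00272). It shares 1433 exon bases with A430018G15Rik on the opposite strand. Cacna2d2, an alpha-2-delta subunit (chromosome 9, 107400036 to 107525658), measured 5.15, 4.30 and 6.20 FPKM and then 0.729, 0.588 and 0.733 (7.63-fold lower, -1.87 ± 0.17, adjusted p = 0.000573). Cacna2d3, of the same group (chromosome 14, 28904992 to 29721784), measured 12.2, 10.7 and 12.5 FPKM and then 3.77, 1.58 and 5.72 (3.19-fold lower, -1.55 ± 0.32, adjusted p = 0.00936). In these 3 genes no 7-day library reached a 3-day one.

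Cacna2d1, the alpha-2-delta subunit that binds gabapentin (chromosome 5, 15934901 to 16374539), measured 20.2, 21.7 and 10.6 FPKM at 3 days and 13.2, 5.15 and 6.41 at 7 days; the groups overlapped and it was not called (-1.04 ± 0.36, adjusted p = 0.0558). Cacnb2 was similar (5.31 ± 1.91 and 2.72 ± 0.679 FPKM, adjusted p = 0.0698). Cacng7, a partner of AMPA receptors, fell from 3.07 ± 0.610 to 0.700 ± 0.15 FPKM (-1.25 ± 0.18, adjusted p = 0.00235). Cacng5 measured 2.80, 1.198 and 20.1 FPKM and then 0.111, 0 and 0.0507. Most of its 3-day level came from replicate 3, and its call (adjusted p = 0.0366) was lost without 3-day replicate 1 or any of the 7-day replicates (up to 0.0986) and with quantile normalization (0.0963). Cacnb3, Cacng2 and Cacng4 fell with adjusted p of 0.0382, 0.0265 and 0.0408. Those of Cacnb3 and Cacng4 were lost without 3-day replicate 2 or 3 or 7-day replicate 1 or 2, and that of Cacng2 without any 7-day replicate. With quantile normalization all 3 were lost, at adjusted p of 0.316 for Cacnb3, 0.603 for Cacng2 and 0.359 for Cacng4, and in Cacng4 the groups overlapped. Cacnb1, Cacng1, Cacng3 and Cacng8 were not called.

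The voltage-gated potassium pores and their silent subunits were the largest family, with 22 members, and 11 of them fell and 0 rose. That is 50% lower, beside 20.3% lower and 18.8% higher of all genes tested. The sum of the 22 went from 42.96, 63.1 and 36.7 FPKM at 3 days to 10.8, 13.4 and 14.2 at 7 days, 3.72-fold lower in the mean. Kcna1, Kv1.1 of axons beside the nodes (chromosome 6, 126636111 to 126645119), measured 6.79, 11.04 and 6.505 FPKM and then 2.68, 2.12 and 2.27 (3.44-fold lower, log2 change -1.41 ± 0.21, adjusted p = 0.00276). Kcna2, its usual partner, fell from 3.29 ± 0.705 to 1.04 ± 0.230 FPKM (-1.07 ± 0.19, adjusted p = 0.0053; 0.0579 with quantile normalization). No 7-day library of these 2 genes reached a 3-day one. Kcnq3, a subunit of the M current, was not called (2.94 ± 0.845 and 1.35 ± 0.798 FPKM, adjusted p = 0.0579).

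In the ether-à-go-go family Kcnh1, Kcnh5 and Kcnh7 fell with log2 changes of -0.97, -1.44 and -1.40 (adjusted p of 0.00399, 0.01 and 0.00204). Quantile normalization ended the call of Kcnh1 (adjusted p = 0.0637). The authors' deposited table gave Kcnh1 a q of 0.327 and Kcnh7 a q of 0.37, and 696 of its exon bases are shared with Gca on the opposite strand. Kcnd2, a channel of the A-type current, fell from 3.04 ± 1.56 to 0.723 ± 0.641 FPKM (adjusted p = 0.0281), a call lost without 3-day replicate 1 or 2 or 7-day replicate 1 or 3 and with quantile normalization (0.134). Kcnq1, of epithelia and heart, measured 2.28, 0.729 and 0.602 FPKM and is listed at 0 in all 7-day libraries (adjusted p = 0.0239, lost without any of these and, at 0.125, with quantile normalization; 121 of its exon bases are shared with Kcnq1ot1). Kcnd1 and Kcns3 had 3-day means of 0.708 and 0.968 FPKM, and their calls were each lost under 7 alternatives, among them the omission of 3-day replicate 1 or 2 or any 7-day replicate, and quantile normalization (0.271 and 0.279). The 11 members not called had log2 changes between -1.16 (Kcna6) and -0.35 (Kcna4). Kcna3, a channel of lymphocytes and macrophages, was not listed by the authors under that symbol, so no value can be given.

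**Figure D4:**
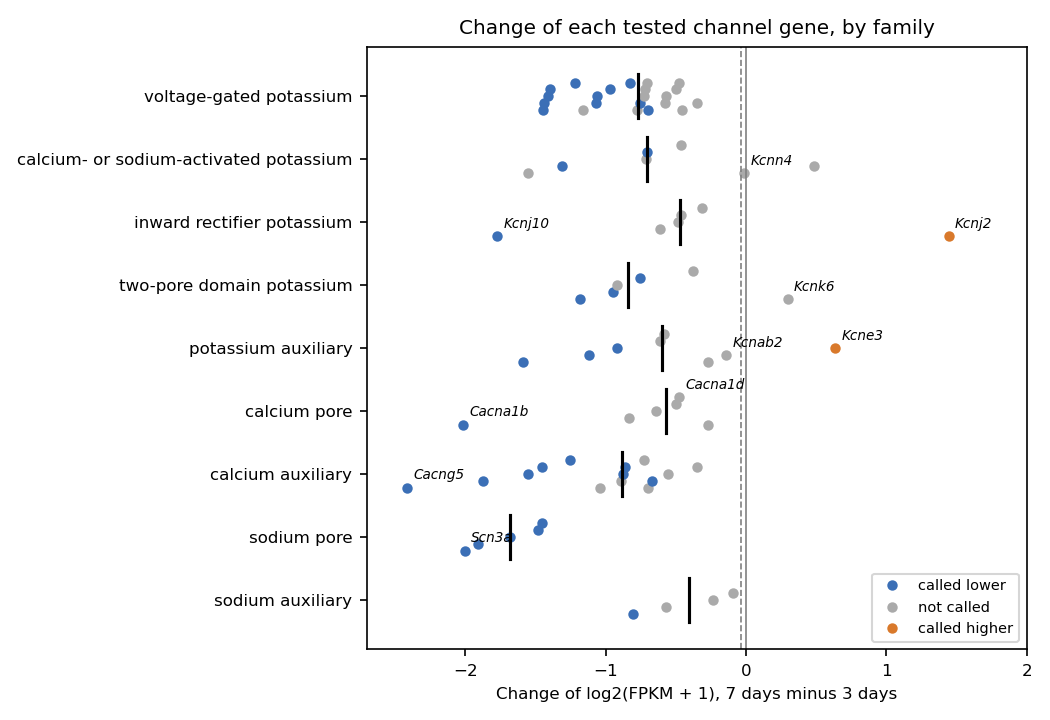
Log2 change (7 days minus 3 days, on log2(FPKM + 1)) of each of the 78 tested channel genes (points), by family (rows); colour gives the limma call, black bars the family median and the dashed line the median of all genes tested (-0.04). All 9 family medians are below 0, from -0.40 in the sodium auxiliary to -1.68 in the sodium pore genes, and only Kcnj2 and Kcne3 are called higher.

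The auxiliary potassium genes included the strongest member and one of the weakest. Besides Kcnab2, Kcnab1 (chromosome 3, 65108302 to 65378756), a Kv1 beta subunit, measured 6.61, 18.6 and 13.8 FPKM at 3 days and 2.61, 5.36 and 2.53 at 7 days. It fell 3.72-fold (-1.59 ± 0.38, adjusted p = 0.0154), but lost the call without 3-day replicate 2 or 3 or 7-day replicate 1 or 3 (up to 0.0569). Kcnip4, which binds Kv4 channels, fell from 2.38 ± 0.783 to 0.548 ± 0.291 FPKM (adjusted p = 0.00882; 0.0667 with quantile normalization). Kcnip3, a calcium-binding protein of the same group, fell from 3.36 ± 1.58 to 1.21 ± 0.120 FPKM (adjusted p = 0.0315); its call was lost without 3-day replicate 1 or 2 or any 7-day replicate, and with quantile normalization (0.227). Kcne3, a single-span partner of Kcnq1, was 0, 0.0618 and 0 FPKM at 3 days and 1.00, 0.425 and 0.392 at 7 days. The call (adjusted p = 0.0404) was lost when any 1 of the 6 libraries was left out (up to 0.135), and the authors' deposited table gave a q of 0.377. Kcnab3, Kcnip1 and Kcnmb4 were not called.

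Among the two-pore domain leak channels, Kcnk2 (TREK-1) fell from 3.59 ± 1.46 to 0.970 ± 0.237 FPKM (-1.18 ± 0.24, adjusted p = 0.00903) and Kcnk9 (TASK-3) from 1.92 ± 0.759 to 0.479 ± 0.0799 FPKM (adjusted p = 0.0131; 0.159 with quantile normalization). Kcnk5 went from a mean of 0.709 ± 0.292 FPKM to a listed 0 in all 7-day libraries (adjusted p = 0.0186, lost without any of these and, at 0.0897, with quantile normalization). Kcnk1, Kcnk6 and Kcnk10 were not called. Of the calcium- or sodium-activated potassium channels, Kcnt2, opened by sodium (chromosome 1, 140354450 to 140610554), measured 5.60, 8.002 and 4.58 FPKM and then 2.68, 0.868 and 2.15 (3.19-fold lower, -1.31 ± 0.29, adjusted p = 0.0124). Kcnt1, its relative, measured 10.2, 10.8 and 2.35 FPKM and then 9.87, 0.221 and 0.321, so that 1 library at each time stood apart and the change was not called (adjusted p = 0.193). Kcnn2 fell (adjusted p = 0.0283; lost under 6 alternatives, among them the omission of 3-day replicate 3 or any 7-day replicate, and quantile normalization at 0.267), while Kcnn1, Kcnn3 and Kcnu1 were not called.

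Of the 85 members, 7 were set aside before testing. For 5 of them, Cacna1a, Cacna1e, Cacna1g, Kcnma1 and Scn9a, the 3 library values do not average to the authors' own mean. Cacna1a, the P/Q-type pore of presynaptic terminals (chromosome 8, 84588518 to 84639284), measured 15.8, 11.2 and 8.43 FPKM at 3 days and 1.98, 2.17 and 2.26 at 7 days. Those 3-day values average 11.8 FPKM, beside a deposited mean of 18.7. Kcnma1, the BK channel (chromosome 14, 23297344 to 23543106), measured 10.2, 8.29 and 5.78 FPKM and then 2.49, 2.38 and 1.73, with a 3-day average of 8.11 beside a deposited mean of 1.14. All 5 had lower values in every 7-day library, and in a fit with no row set aside their adjusted p lay between 0.00102 (Cacna1a) and 0.0179 (Cacna1e). Kcnip2 and Kcnk13 were marked as untested by the authors and stayed below 0.5 FPKM in all libraries.

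Among the 3-day libraries, replicate 2 was most often the highest. Of the 35 members called lower, 23 were highest in 3-day replicate 2 (65.7%), 6 in replicate 1 and 6 in replicate 3. Of all 2645 genes called lower, 1561 were highest in that library (59.0%). Without 3-day replicate 2, 28 of the 78 tested members were still called lower, beside 2307 of all 13042 genes. Without 7-day replicate 1 there were 24, beside 1788 of all genes. The neural, endothelial and erythroid marker sums moved in the same direction as these genes, and their part in the falls was not tested.

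Proteins that bind or anchor these channels were counted from a list of their own. Of 14 tested, 6 fell and 0 rose (42.9% lower, beside 20.3% lower and 18.8% higher of all genes), with a median log2 change of -0.89. Ank3, the ankyrin that holds sodium channels at the axon initial segment, fell from 38.9 ± 8.11 to 7.91 ± 1.45 FPKM (-2.16 ± 0.19, adjusted p = 0.00048), and Fgf13, which binds the tail of sodium channels, from 3.10 ± 0.632 to 0.770 ± 0.372 FPKM (adjusted p = 0.00545).

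Ion channels outside the 3 name groups were counted from a further list. Of 43 tested, 11 rose and 9 fell, with a median log2 change of 0.04. That is 25.6% higher and 20.9% lower, near the 18.8% higher and 20.3% lower of all genes. Hvcn1, the voltage-gated proton channel of phagocytes, measured 6.54, 7.75 and 8.46 FPKM at 3 days and 26.7, 28.5 and 31.4 at 7 days (1.80 ± 0.13, adjusted p = 0.000237). Mcoln3, Tpcn1 and Clcn7 also rose, with log2 changes of 3.35, 1.10 and 0.93. Of their tested relatives, Mcoln2 rose as well (0.81, limma adjusted p = 0.00285), while Tpcn2, Clcn3, Clcn5 and Clcn6 were not called. Falls were seen in Nalcn, the sodium leak channel of neurons (17.6 ± 5.62 to 5.66 ± 1.33 FPKM, adjusted p = 0.00395), and in the pacemaker channel Hcn2 and in Trpc1, with log2 changes of -1.11 and -1.14.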

How the data were processed

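RNA was collected by RiboTag immunoprecipitation and made into ScriptSeq v2 libraries, per the labels' protocols, with 3 libraries at 3 days and 3 at 7 days. TopHat2 2.0.12, Cufflinks 2.2, Cuffdiff 2.2.1 and build mm10 were used, per the submitters' processing notes, which give no role or order. Per the file headers, the authors deposited FPKM for each gene and library, their mean FPKM at each time, a log2 fold change, a test score, and a p-value and q-value from their own test. The scaling between libraries, the strand used in counting and the rule behind the authors' filtered table are not given in the sources used here. The number of reads behind a value is unknown, so no counting interval is given.

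The unfiltered table has 13960 rows. Of these, 918 were set aside: 45 whose test status is not OK, 838 whose libraries miss the authors' mean by over 1%, 14 at 0 beside 100 FPKM or more in another library, and 32 of repeated symbols, with some in more than 1 class. The other 13042 genes were fitted with limma 3.58.1 (R 4.3.3) on log2(FPKM + 1) with a trend in the prior variance, as a two-sided test of 7 days against 3 days, and p-values were adjusted by Benjamini-Hochberg over all of them. Log2 changes are on that scale, which understates the change of weak genes; folds are ratios of mean FPKM, and ± marks the SD of FPKM or the SE of a log2 change. The smallest p that an exact permutation of 3 and 3 libraries allows is 0.1, so calls depend on the variance estimate limma borrows from other genes. The fit was tested on simulated data.

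The members, families and other lists were chosen with earlier results of these data known. Named were all members at 1 FPKM or more in all 6 libraries, of the other called members reaching a mean of 1 FPKM at either time the 20 that changed most, and a few chosen by function; further members are named to account for their family, after their values were seen. A few genes counted in the totals are not reported here by name. Gene coordinates were copied from the authors' table, which does not say if starts count from 0 or 1. In GENCODE M21, 32 of the 85 members share exon bases with another gene. Alternatives covered the pseudocount, a filter on the mean, scaling, the rows set aside, the filtered table, the prior, the class limit, the replicate number as a block, and each library left out. Python 3.11.15 with pandas 2.3.3 and matplotlib 3.10.9 made the summaries and figures.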

Additional observations from a re-analysis of the deposited data

How the results depend on the processing

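Leaving out 1 library at a time gave 1572 to 2207 genes higher and 1697 to 2565 lower over all genes, both lowest without 7-day replicate 2. Members called higher then numbered 1 to 2 and members called lower 24 to 35. Among members at 1 FPKM or more in all libraries 8 to 10 were lower, and among those below it 0 to 1 were higher and 15 to 25 lower, fewest without 7-day replicate 1 (15) and replicate 2 (16). Other ion channels numbered 7 to 10 higher and 4 to 8 lower, with 7 higher and 4 lower without 7-day replicate 2, 4 lower without 7-day replicate 3 and 5 lower without 3-day replicate 3.

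Quantile normalization gave 19 members lower, 18 of the 35 and Cacna1d, with 9 of the 19 below 1 FPKM in some library, and 5 other ion channels lower. Over all genes it gave 1809 lower and 2317 higher. The authors' filtered table, which holds fewer genes, left 1433 of 9585 tested genes lower. Among these were 8 of 26 tested members, 1 of them at 1 FPKM or more in all libraries and 7 below it, and 4 other ion channels. With genes at a mean of 1 FPKM or more, or with centring on the median gene, 1 member was higher, and 0 among members below 1 FPKM in some library. With other class limits the class held 51 members (mean of 1 FPKM), 36 (minimum of 0.5 FPKM) or 13 (minimum of 2 FPKM), with 28, 19 and 6 of them lower. Of all genes with a mean of 1 FPKM or more, 19.7% were lower and 21.9% higher. The causes of the other shifts were not tested.

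The replicate numbers did not pair the samples: same-numbered libraries had correlations of 0.0995, 0.00545 and 0.00465 between their deviations from the group means. With the replicate number as a block, 35 members were lower and 1 higher (Kcnj2), with 0 higher among members below 1 FPKM in some library. Cacng2, Kcnd1, Kcnn2 and Kcns3 lost their lower calls with the block, and Cacna1d was among the members that gained one (adjusted p = 0.0483).

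Kcnn4, whose change was near 0, ranged from -0.14 to 0.088 with 1 library left out and turned positive without 3-day replicate 1 (0.088), 3-day replicate 3 (0.02) or 7-day replicate 2 (0.05). Of the 47 tested genes picked for naming by level, size of change or function, 15 lost a call under some alternative. Among the same genes 3 gained one (Cacna1d, Cacna2d1 and Cacnb2). Members named only to account for their family are not in these counts. Some of them lost a call too, such as Cacng2, or gained one, such as Kcnq3. Of the 35 members called lower, 17 kept the call in every fit that tested them.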
